A study of Mus musculus with 6 samples.

Results

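Collagens and other genes of the extracellular matrix (ECM) were examined in macrophages (MPs) of injured mouse muscle. The 50 genes were chosen by their symbol from a list made with the results of these data known, and all 50 of 50 listed symbols were present among the 13008 genes measured. They were divided into 28 genes taken as largely restricted to fibroblasts in muscle, 4 that MPs also express (Fn1, Sparc, Plod1 and P4ha1) and 18 that several cell types express, called broadly expressed here. The first class is not strict, since Pdgfrb in it also marks pericytes. RNA-seq had been performed on GFP+/F4/80+/Ly6C-Low MPs, isolated by FACS on day 5 after cardiotoxin injury of 3 leg muscles in 3-month-old C57BL/6J mice, with 3 Control and 3 Cripto KO samples. By the study's account both groups carry LysMCre, which drives Cre in the myeloid lineage as a whole and not in MPs alone, and the R26mTmG reporter, in which Cre turns on GFP. Cripto KO mice (Cripto My-LOF) carry Cripto fl/fl alleles in addition. The labels give the genotype of Control as wild type. According to the study, deletion of Cripto in GFP+ cells was not complete. Cripto itself was not analysed here, so the targeted gene does not check the labels. Nothing in the sources ties a sample to 1 animal or to a pool, so p-values measure the spread between these samples.

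The ECM is the protein scaffold around cells. Fibroblasts make most of it: they secrete procollagen chains, which are hydroxylated and folded inside the cell, trimmed outside it, and then assembled into fibrils that lysyl oxidases cross-link. After muscle injury a transient matrix is laid down around regenerating fibers, while MPs clear debris, take up matrix fragments and make some matrix proteins themselves, fibronectin among them. In bulk samples such as these, fewer cells of a type and less RNA per cell cannot be told apart.

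The libraries held 12688968 to 14141773 reads in Control and 14633880 to 15659847 reads in Cripto KO, so that 3 reads corresponded to a normalized value of 0.222 to 0.286. Normalized values are given as deposited, in reads plus 0.5 per 1000000. MP markers stood at high levels in all 6 samples, with Adgre1 (F4/80) at 380 ± 15.2 per kilobase of exon in Control and 370 ± 51.2 in Cripto KO (SD, n = 3), Csf1r at 298 ± 14.5 and 290 ± 16.98, and Cd68 at 1275 ± 130 and 1186 ± 22.9. A pair of Control libraries stood apart. The library labelled Control 1, male by its label, had Xist at 171 (0.114 to 0.885 in the other libraries) and Eif2s3y at 0.0368 (53.7 to 64.1 in the others). Control 2 had Lyz2, the gene that carries the LysMCre insertion, at 11100 against 21.2 to 28.3 in the others. The counts of genes lower in Control, the number of genes called and the class medians are also given without each of them.

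Collagen transcripts were present in every library. The 28 fibroblast-restricted genes together took 0.0663% to 0.0711% of all reads in Control and 0.0825% to 0.0865% in Cripto KO. Summed, their normalized values came to 692, 730 and 738 in Control 1 to 3 and to 861, 873 and 833 in Cripto KO 1 to 3, so each Cripto KO sample lay above each Control sample, with a ratio of the means of 1.19. The 3 major interstitial collagen genes, Col1a1, Col1a2 and Col3a1, made up 62.8% to 66.3% of that sum. Without them the other 25 genes summed to 243, 271 and 265 in Control, against 310, 294 and 308 in Cripto KO, a ratio of 1.17. For the 18 broadly expressed genes the ratio was 1.05, and for the 4 genes that MPs also express 1.02, with overlapping samples in both.

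**Figure D1:**
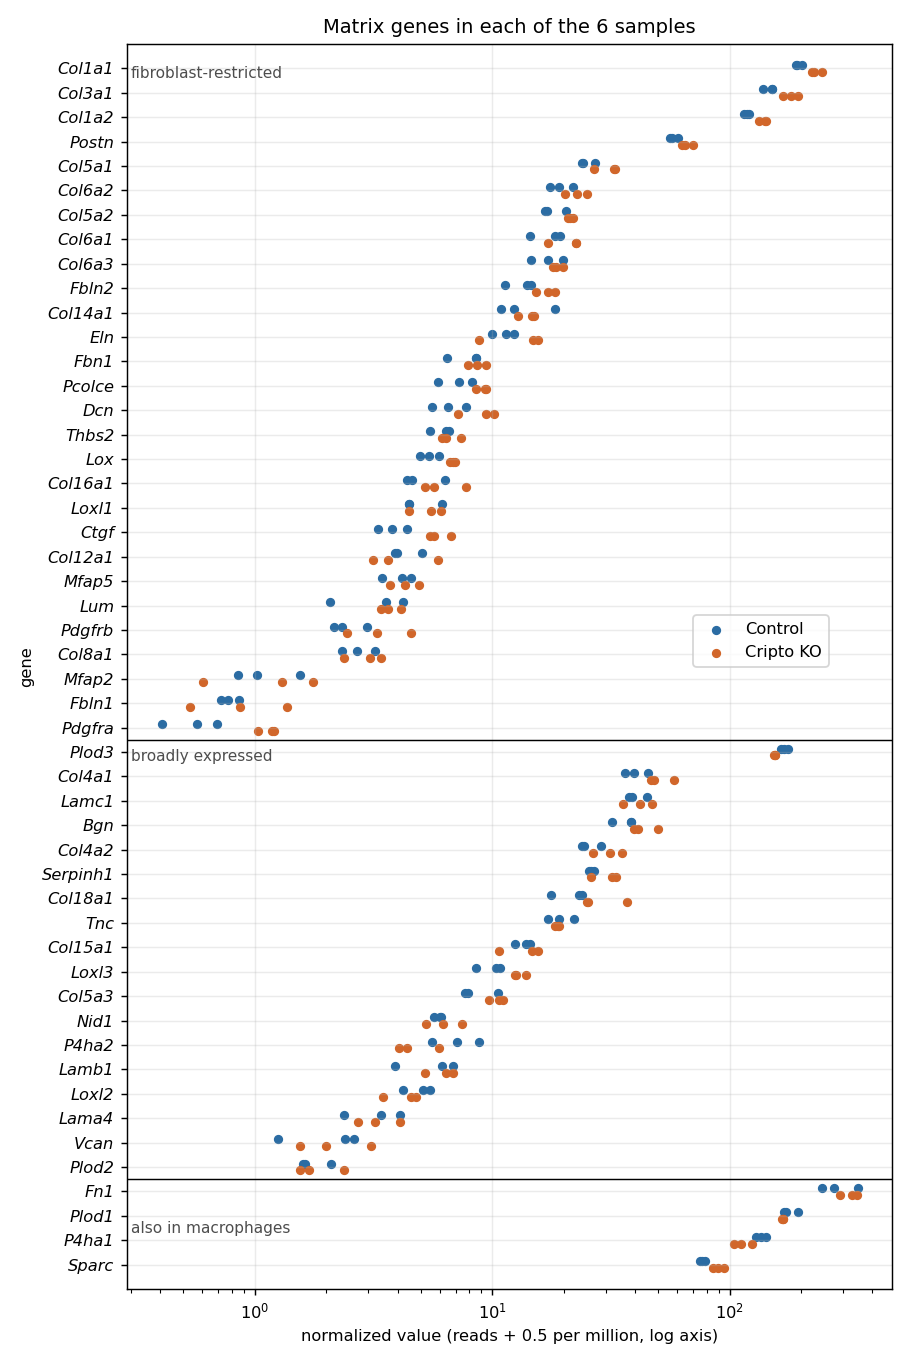
Normalized value (reads + 0.5 per 1000000, log axis) of each of the 50 genes in each of the 3 Control (blue) and 3 Cripto KO (orange) samples, grouped by where the genes are expressed. Col1a1 spans 191 to 201 in Control and 223 to 244 in Cripto KO, whereas Pdgfra is at 1.21 or less in all samples.

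Of the 50 genes, 42 had a lower mean log2 value in Control than in Cripto KO, where 47.4% of all genes did. The count was 43 without Control 1 and 39 without Control 2. In limma none of the 50 genes had an adjusted p-value under 0.05, where 0.131% of all genes did (17 genes, of which 6 genes or 0.0461% of all were higher in Cripto KO). Over all genes 31 were called without Control 1 and 16 without Control 2, none of them among the 50. The lowest adjusted p-value was 0.373, for Col3a1. Nor did any gene pass with voom, edgeR or DESeq2. At an unadjusted p under 0.05 limma gave 18 of the 50 genes, 15 of them lower in Control, beside 8.59% of all genes. In 15 genes every Cripto KO value was above every Control value (6.43% of all genes), in 3 genes every Control value was above every Cripto KO value (8.02% of all genes), and in 32 genes the ranges overlapped. Since the genes were selected on results of this comparison, these counts describe them and nothing is read from the difference from all genes.

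By where the genes are expressed, the counts were as follows, and the difference between the classes was not tested. Among the 28 fibroblast-restricted genes, 27 had a lower mean in Control, Col12a1 being the exception, and 10 had every Cripto KO value above Control. Without Control 1 or without Control 2 the count was 26 of 28. Their median log2 fold change, log2(Control/Cripto KO), was -0.24, against 0.01 over all genes. It was -0.19 without Control 1 and -0.25 without Control 2. Without Control 3, 23 of the 28 genes were lower in Control, and 20 of the 28 had the same sign under every alternative of processing in which they were tested. When single samples were left out, the log2 fold change stayed within 1.5 times its value for 17 of the 50 genes and turned its sign at least once for 16. Among the 17 were Col1a1, Col1a2, Col3a1, Col4a1, Col5a1, Col5a2, Sparc and P4ha1. Of the 18 broadly expressed genes 13 were lower in Control, with a median of -0.08 that became -0.20 without Control 1 and -0.05 without Control 2. The 4 genes that MPs also express were split, with 2 genes lower and 2 genes higher in Control and a median of -0.04 (-0.04 without Control 1, -0.01 without Control 2).

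**Figure D2:**
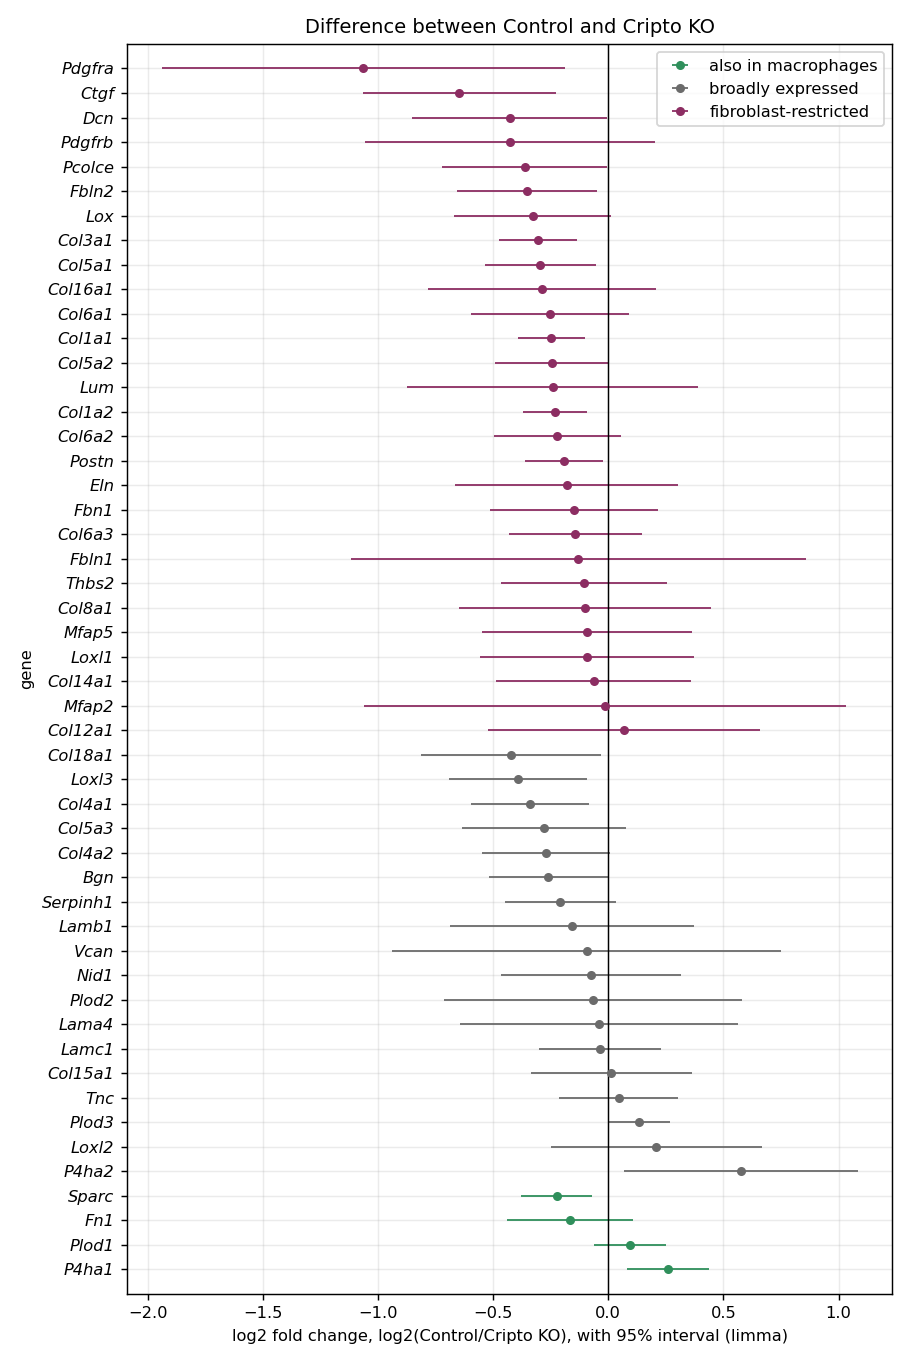
Log2 fold change, log2(Control/Cripto KO), of each of the 50 genes with its 95% interval from limma, sorted within the fibroblast-restricted, broadly expressed and MP-expressed genes. Points left of 0 are higher in Cripto KO, which holds for 27 of 28 fibroblast-restricted genes, while P4ha1, P4ha2, Plod1 and Plod3 lie to the right.

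Sequences in front of 3 of the genes are shown. A collagen gene higher in Cripto KO can be seen beside P4ha1 and Plod1, the enzyme genes of the MP-expressed class, which were higher in Control. They are the 250 bases before the RefSeq start of each gene on GRCm38.p6, 5′ to 3′ on the strand of the gene, and none of these bases lies in an annotated exon. Capitals mark the motifs searched on both strands, namely TATAAA (the TATA box), CCAAT (the CCAAT box) and GGGCGG (the GC box), and no base of these windows belongs to more than 1 motif.
Col3a1 (chr1:45311288-45311537, plus strand): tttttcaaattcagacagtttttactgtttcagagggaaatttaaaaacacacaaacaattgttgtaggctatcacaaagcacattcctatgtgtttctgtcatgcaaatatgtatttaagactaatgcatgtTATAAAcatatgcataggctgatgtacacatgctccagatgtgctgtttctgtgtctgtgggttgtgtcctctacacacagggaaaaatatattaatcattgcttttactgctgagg
P4ha1 (chr10:59323046-59323295, plus strand): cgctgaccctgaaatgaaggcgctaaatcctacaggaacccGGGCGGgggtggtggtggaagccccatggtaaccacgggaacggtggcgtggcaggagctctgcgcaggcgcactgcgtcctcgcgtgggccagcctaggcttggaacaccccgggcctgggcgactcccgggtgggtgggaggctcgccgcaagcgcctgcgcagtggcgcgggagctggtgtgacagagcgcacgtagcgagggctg
Plod1 (chr4:147936777-147937026, minus strand): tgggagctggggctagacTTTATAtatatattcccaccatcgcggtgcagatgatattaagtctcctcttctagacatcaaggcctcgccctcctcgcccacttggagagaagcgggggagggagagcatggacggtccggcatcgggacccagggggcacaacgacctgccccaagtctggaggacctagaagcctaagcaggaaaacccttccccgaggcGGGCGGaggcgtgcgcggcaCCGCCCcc
The window of Col3a1 held 1 TATAAA, beginning 117 bases before the start, and neither CCAAT nor GGGCGG. That of P4ha1 held 1 GGGCGG, and that of Plod1 held 2 GGGCGG within 28 bases of the start and 1 TATAAA on the other strand. RefSeq windows matched 32 of the 50 genes by symbol. TATAAA was found in 5 of these 32 genes (12.4% of all 32851 windows), CCAAT in 12 (33.9%) and GGGCGG in 22 (32.7%). In the 16 fibroblast-restricted genes among them the counts were 3, 4 and 10. The 32 genes had 38 windows, and a gene was counted if any of its windows held the motif. Such counts of genes cannot be set against the shares of windows. Some of these windows, such as those of Col4a1 and Col4a2, lie wholly in annotated exons. These matches describe letters in a window and not binding.

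Fibrillar collagens, which form the tensile fibrils of connective tissue, included the 3 highest normalized values of the fibroblast-restricted genes. All 6 had a lower mean in Control, and in 4 of them the groups did not overlap. Col1a1 (chr11:94936224-94953042), the α1 chain of type I collagen, had values of 191, 192 and 201 in Control, compared with 226, 244 and 223 in Cripto KO, a log2 fold change of -0.25 (SE 0.06). Col1a2, its partner chain, stood at 119, 115 and 121 in Control versus 142, 141 and 133 in Cripto KO (-0.23, SE 0.06). Col3a1, the chain of type III collagen that is prominent in early repair tissue, had 138, 151 and 151 in Control, against 182, 194 and 169 in Cripto KO (-0.31, SE 0.07). For all 3 genes each Cripto KO sample was above each Control sample, with ratios of the means of 1.19, 1.17 and 1.24. Col5a1, a chain of the type V collagen that starts fibril assembly, stood at 24.1, 23.9 and 27.1 in Control, compared with 26.9, 32.8 and 32.6 in Cripto KO (-0.29, SE 0.11), with Control 3 above Cripto KO 1. Col5a2 had 16.97, 16.7 and 20.4 in Control versus 21.2, 20.8 and 21.8 in Cripto KO (-0.24, SE 0.11), without overlap. Col3a1 and Col5a2 are neighbours on chromosome 1, 24615 bases apart. The sixth gene, Col5a3, had a log2 fold change of -0.28.

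Chains that assemble together were set against each other as ratios within a sample. Per kilobase of exon, Col1a1 was 3.05, 3.15 and 3.16 times Col1a2 in Control, against 3.01, 3.28 and 3.18 times in Cripto KO, so the ranges overlapped. Col4a1 was 1.39, 1.47 and 1.31 times Col4a2 in Control, compared with 1.35, 1.56 and 1.47 times in Cripto KO. Col6a1 was 1.57, 1.84 and 1.67 times Col6a2 in Control, against 1.71, 1.61 and 1.88 times in Cripto KO. Each of these 3 ratios overlapped between the groups. Their size depends on the lengths used, which merge the exons of all annotated transcripts (4380 bases for Col6a1, 8326 for Col6a2). Before division by length Col6a2 had the higher mean, with 19.5 against 17.4 in Control and 22.7 against 20.7 in Cripto KO. Ratios of Col1a1 to Plod1 and P4ha1 did not overlap between the groups. Col1a1 over Plod1 was 1.16, 1.14 and 1.07 in Control, against 1.39, 1.49 and 1.39 in Cripto KO, and Col1a1 over P4ha1 was 0.842, 0.891 and 0.976 against 1.36, 1.37 and 1.13. Because Col1a1 was higher and both enzymes were lower in Cripto KO, these ratios restate the members' own differences.

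**Figure D3:**
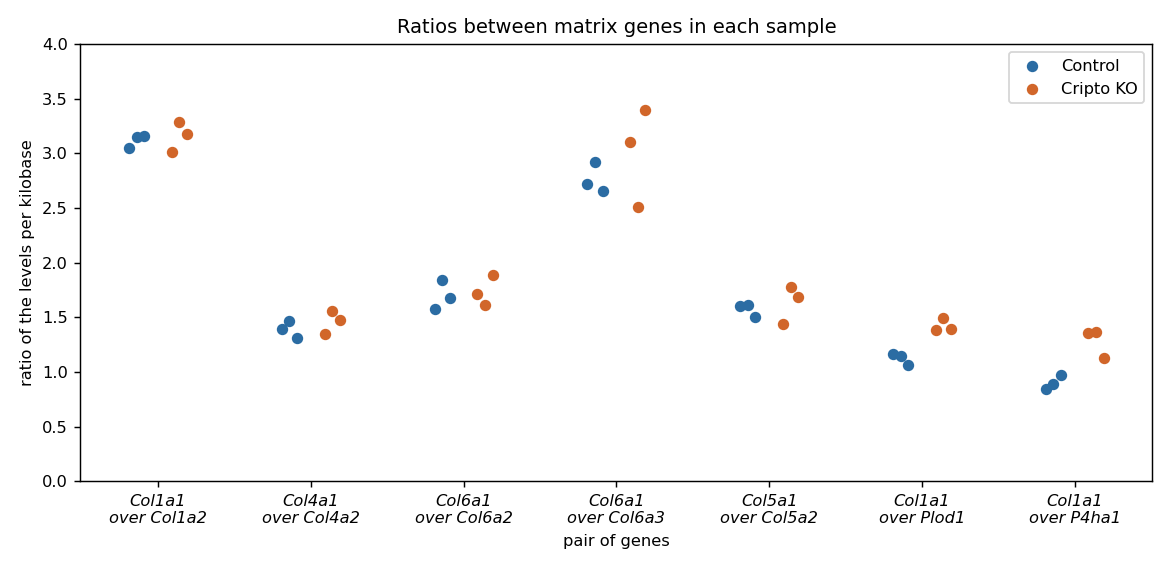
Ratio of the levels per kilobase of exon between pairs of genes in each Control (blue) and Cripto KO (orange) sample. The ratios of collagen chains overlap between the groups, whereas Col1a1 over P4ha1 spans 0.842 to 0.976 in Control and 1.13 to 1.37 in Cripto KO.

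Type VI collagen forms beaded filaments around cells, and its 3 chains were at similar values. Col6a1 stood at 14.5, 18.4 and 19.3 in Control versus 22.6, 17.1 and 22.5 in Cripto KO (log2 fold change -0.25, SE 0.15). Col6a2 had 17.5, 19.0 and 21.9 in Control, against 25.2, 20.2 and 22.7 in Cripto KO (-0.22, SE 0.12). For Col6a3 the values were 14.5, 17.2 and 19.9 in Control, compared with 19.9, 18.6 and 18.1 in Cripto KO (-0.14, SE 0.13). All 3 means were lower in Control, and the groups overlapped for each. Col14a1, a collagen bound to the surface of fibrils, had 10.9, 18.4 and 12.4 in Control versus 15.0, 14.8 and 12.8 in Cripto KO (-0.06, SE 0.19). Its highest value was that of Control 2. The other 3 fibril-associated or short-chain collagens, Col8a1, Col12a1 and Col16a1, had log2 fold changes from -0.29 to 0.07, with overlapping groups.

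Basement membrane collagens form the sheets beneath endothelium and around muscle fibers. Their 2 major chains are encoded head to head on chromosome 8, and the annotated exons of Col4a1 and Col4a2 share 22 bases on opposite strands. Col4a1 had values of 45.1, 39.4 and 36.2 in Control, against 47.8, 46.7 and 58.3 in Cripto KO (log2 fold change -0.34, SE 0.11), with all Cripto KO samples above Control. Col4a2 had 28.7, 23.8 and 24.4 in Control, compared with 31.4, 26.6 and 35.1 in Cripto KO (-0.27, SE 0.12), and here Control 1 lay above Cripto KO 2. Both genes were highest in Cripto KO 3. Col18a1, the precursor of endostatin, had 23.9, 17.6 and 23.2 in Control versus 25.3, 25.1 and 36.9 in Cripto KO (-0.42, SE 0.17, adjusted p = 0.548 in limma), without overlap. It was -0.24 without Cripto KO 3 and -0.28 without Control 2. Col15a1 did not separate the groups (0.01). Laminins and nidogen, the other components of the basement membrane, gave 4 of 4 genes lower in Control with a median of only -0.06 and overlapping groups. Lamb1, a laminin β chain, had 6.81, 6.17 and 3.88 in Control versus 6.83, 5.20 and 6.38 in Cripto KO (-0.16, SE 0.24). Nid1, which links laminin to type IV collagen, had 5.71, 6.09 and 6.00 in Control, against 7.46, 6.19 and 5.27 in Cripto KO (-0.07, SE 0.17).

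Fn1, which encodes fibronectin and is made by MPs themselves, had the highest normalized value of all 50 genes. It stood at 346, 275 and 245 in Control, compared with 328, 343 and 293 in Cripto KO (log2 fold change -0.16, SE 0.12, adjusted p = 0.747 in limma). Control 1 was the highest of the 6 samples, and the groups overlapped. The log2 fold change of Fn1 was -0.30 without Control 1 (adjusted p = 0.282) and -0.05 without Control 3. Sparc, a secreted glycoprotein that binds collagen, had 75.3, 78.9 and 76.3 in Control versus 89.4, 85.3 and 94.7 in Cripto KO (-0.22, SE 0.07, adjusted p = 0.448). Although MPs also express it, Sparc had no overlap between the groups and a log2 fold change near those of Col1a1 and Col1a2. Other matricellular proteins, which modulate cell contact with the matrix, varied. Postn (periostin) had 55.9, 60.7 and 56.9 in Control, against 63.0, 70.4 and 64.8 in Cripto KO (-0.19, SE 0.07), without overlap. Tnc (tenascin C) had 22.1, 19.1 and 17.1 in Control, compared with 19.1, 18.9 and 18.3 in Cripto KO (0.04, SE 0.11), so the groups overlapped entirely. Ctgf, a growth factor-binding protein induced in fibrosis, showed the largest log2 fold change among the 48 genes with a mean value of at least 1. Its values were 3.79, 4.35 and 3.31 in Control versus 6.70, 5.49 and 5.69 in Cripto KO (-0.65, SE 0.19, adjusted p = 0.420), without overlap. Its exons share 665 bases with Gm15270 on the other strand.

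Small proteoglycans bind collagen fibrils and set their spacing. Dcn (decorin) had values of 6.52, 7.76 and 5.59 in Control, against 9.43, 7.18 and 10.2 in Cripto KO (log2 fold change -0.43, SE 0.19), with Control 2 above Cripto KO 2. Lum (lumican), which lies 46985 bases from Dcn on chromosome 10, had 3.57, 4.20 and 2.08 in Control, compared with 3.65, 4.14 and 3.41 in Cripto KO (-0.24, SE 0.28). Bgn (biglycan) had 31.9, 38.3 and 38.4 in Control versus 49.8, 41.0 and 39.5 in Cripto KO (-0.26, SE 0.11). Bgn was the sole proteoglycan without overlap between the groups. Vcan, the large hyaluronan-binding proteoglycan versican, had 2.61, 1.25 and 2.41 in Control, against 2.00, 3.08 and 1.55 in Cripto KO (-0.09, SE 0.37).

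Elastic fibers consist of elastin on a scaffold of fibrillin microfibrils. All 6 genes of this group had a lower mean in Control (median log2 fold change -0.14), and in 1 of them the groups did not overlap. That gene was Fbln2 (fibulin 2), with 14.6, 14.04 and 11.3 in Control, compared with 17.2, 15.2 and 18.4 in Cripto KO (-0.35, SE 0.13). Fbn1 (fibrillin 1) had 6.44, 8.51 and 8.53 in Control versus 8.60, 7.89 and 9.41 in Cripto KO (-0.15, SE 0.16). Mfap5, a microfibril-associated protein, had 4.16, 3.44 and 4.53 in Control, against 4.29, 3.72 and 4.93 in Cripto KO (-0.09, SE 0.20). Fbn1 shares 2442 exon bases with Gm9913 on the other strand. For Fbn1 and Mfap5 the difference was no larger than its standard error. Among the lysyl oxidases, which cross-link collagen and elastin, Lox had 4.97, 5.94 and 5.43 in Control, compared with 6.64, 6.83 and 6.996 in Cripto KO (-0.33, SE 0.15), without overlap. Loxl3 was also above Control in every Cripto KO sample (-0.39), but 535 of its exon bases overlap Htra2 on the other strand, and no strand-specific counting is stated. Loxl2 (0.21) shares 43.3% of its 31-base words with Gm21451 and is uncertain.

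Of the 6 enzymes and chaperones that modify or fold collagen inside the cell, 4 had a higher mean in Control. P4ha1, a catalytic subunit of prolyl 4-hydroxylase, which stabilizes the collagen helix, had values of 142, 135 and 129 in Control versus 105, 112 and 124 in Cripto KO (log2 fold change 0.26, SE 0.08, adjusted p = 0.448 in limma). Plod1, a lysyl hydroxylase, had 170, 173 and 194 in Control, against 168, 169 and 165 in Cripto KO (0.09, SE 0.07, adjusted p = 0.748). In both genes every Control value was above every Cripto KO value, by a small margin for Plod1. Leaving out single samples gave log2 fold changes from 0.03 to 0.13 for Plod1. Plod3, a further lysyl hydroxylase, had 176, 169 and 165 in Control, compared with 155, 155 and 154 in Cripto KO (0.14, SE 0.06). It shares 529 exon bases with Znhit1 on the other strand. P4ha2, the second catalytic subunit, had 7.10, 5.56 and 8.77 in Control versus 4.03, 4.35 and 5.96 in Cripto KO (0.58, SE 0.22), with Cripto KO 3 above Control 2. Plod2 was at a mean value under 2 and did not separate the groups (-0.07). Serpinh1, the collagen chaperone HSP47, had 26.0, 25.6 and 26.7 in Control, against 31.9, 26.0 and 33.1 in Cripto KO (-0.21, SE 0.11) and so lay on the side of the collagens. Over these 6 intracellular proteins the median was 0.11, against -0.25 over the 17 collagen chains. Pcolce, which acts outside the cell to enhance the trimming of procollagen, had 5.93, 8.21 and 7.22 in Control, compared with 9.43, 9.31 and 8.51 in Cripto KO (-0.36, SE 0.16), without overlap.

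PDGF receptors mark fibroblasts and pericytes. Pdgfra was near the lower limit of these libraries, with 5, 7 and 8 reads in Control and 18, 14 and 17 reads in Cripto KO. In normalized values these were 0.405, 0.568 and 0.694 against 1.17, 1.03 and 1.21 (log2 fold change -1.06, SE 0.39, adjusted p = 0.517 in limma). With a pseudocount of 1 the log2 fold change of Pdgfra was -0.46. Pdgfrb had 2.32, 2.16 and 2.98 in Control versus 4.54, 2.44 and 3.27 in Cripto KO (-0.43, SE 0.28), with overlap.

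Compared per kilobase of exon, Plod3 was the highest of the 50 genes in Control (37.6 ± 1.24, SD, n = 3), followed by P4ha1 (32.9 ± 1.61), Col1a1 (29.7 ± 0.860) and Plod1 (26.5 ± 1.96). In Cripto KO the order at the top was Col1a1 (35.2 ± 1.699), Plod3 (34.2 ± 0.202) and P4ha1 (27.6 ± 2.34), where Col1a1 and Plod3, and likewise P4ha1 and Fn1 (27.5 ± 2.21), were within their spread. Col3a1 was at 15.0 ± 0.751 and 18.5 ± 1.31, Col1a2 at 9.51 ± 0.224 and 11.2 ± 0.398, and Pdgfra at 0.0554 ± 0.0144 and 0.113 ± 0.00958. Col1a1 stood at 0.0796, 0.0737 and 0.0812 of the level of Adgre1 in Control and at 0.0975, 0.0870 and 0.104 in Cripto KO. Col1a1 was thus far below Adgre1, Csf1r and Cd68 in both groups. Per kilobase of merged exon, Mertk stood at 32.2 and 30.04 and Ptprc at 26.8 and 23.8 in Control and Cripto KO. Their nearness to Col1a1 depends on the lengths, which merge the exons of all annotated transcripts. Before division by length the means in Control and Cripto KO were 491 and 436 for Ptprc and 140 and 130 for Mertk. Those of Col1a1 were 195 and 231.

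**Figure D4:**
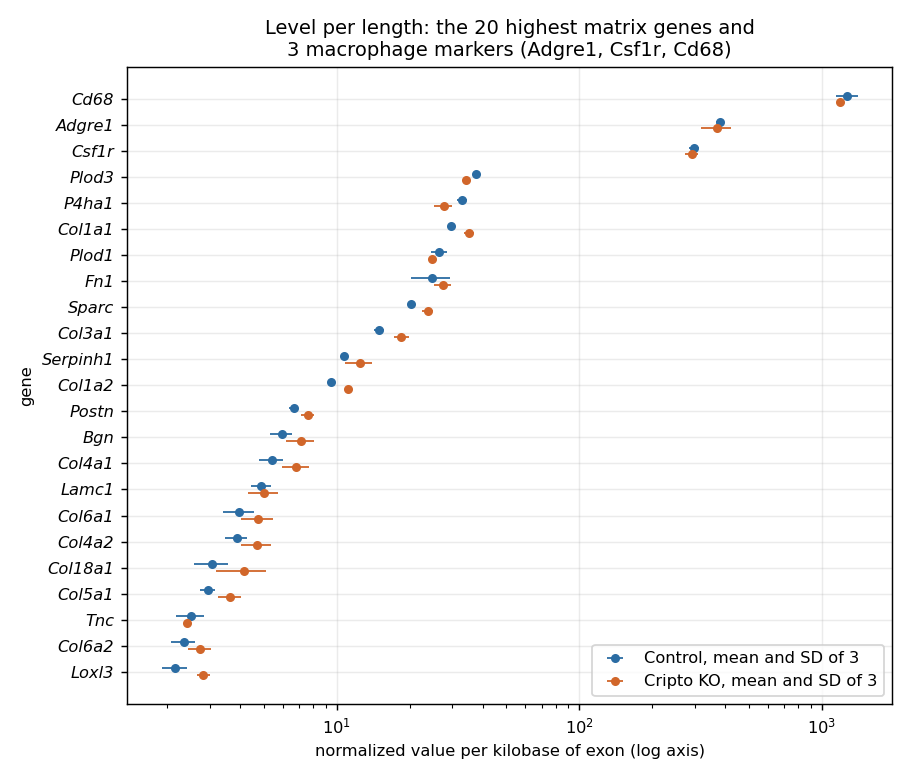
Mean level per kilobase of exon (log axis, bars: SD, n = 3) in Control (blue) and Cripto KO (orange) for the 20 matrix genes with the highest Control level and for the MP markers Cd68, Adgre1 and Csf1r. Col1a1 is at 29.7 in Control and 35.2 in Cripto KO, below Adgre1 at 380 and 370.

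Markers of other cells were read in the same libraries. Over all genes 47.4% had a lower mean in Control. Every Cripto KO value was above Control in 6.43% and every Control value above Cripto KO in 8.02%. In limma 8.59% had an unadjusted p under 0.05 and 0.131% an adjusted one. Of 28 listed fibroblast markers that are not matrix genes, 23 were present. Of these 18 had a lower mean in Control, the median log2 fold change was -0.22, and in 2 genes every Cripto KO value was above Control and in 1 every Control value was above Cripto KO. Sfrp2, a secreted WNT modulator, had the smallest p of this list (log2 fold change -1.98, SE 0.54, adjusted p = 0.411 in limma). The summed level of the list was 506 to 563 in Control and 534 to 579 in Cripto KO, and Gsn, Pdpn and Ly6a, which other cells also express, were its highest genes. Endothelial markers (12 of 12 present) summed to 112 to 134 in Control and 122 to 134 in Cripto KO, with a median of -0.06, and pericyte and smooth muscle markers (8 of 11) to 50.5 to 63.0 and 46.7 to 65.5, with a median of 0.03. Muscle fiber markers (13 of 15) had the opposite sign to the collagens, with 12 of 13 higher in Control, 3 of them without overlap, 8 at an unadjusted p under 0.05 and a median of 1.32. They summed to 48.9 to 103 in Control, highest in Control 1, and to 22.2 to 67.1 in Cripto KO. Myoblast markers (3 of 8) summed to 4.16 to 7.06 in Control and 4.42 to 11.4 in Cripto KO. All 3 had a lower mean in Control, with a median of -0.58, overlapping groups and mean values of at most 3.75. Tenocyte and Schwann cell markers (3 of 8) summed to 20.4 to 28.5 and 23.7 to 28.6, with a median of -0.11. Neutrophil markers (6 of 8) summed to 1.63 to 1.89 in Control and 1.97 to 4.20 in Cripto KO, without overlap. Of these 6 genes 3 had a lower mean in Control, with a median of -0.09, and S100a9, Retnlg and Ngp were at the floor of 3 reads or fewer. MP markers (13 of 13) summed to 21059 to 21626 in Control and 19859 to 21653 in Cripto KO, with a median of 0.05. No gene of the fibroblast list had an adjusted p-value under 0.05 in limma (1 at an unadjusted p under 0.05). The part of fibroblast transcripts in the difference of the matrix genes was not tested.

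**Figure D5:**
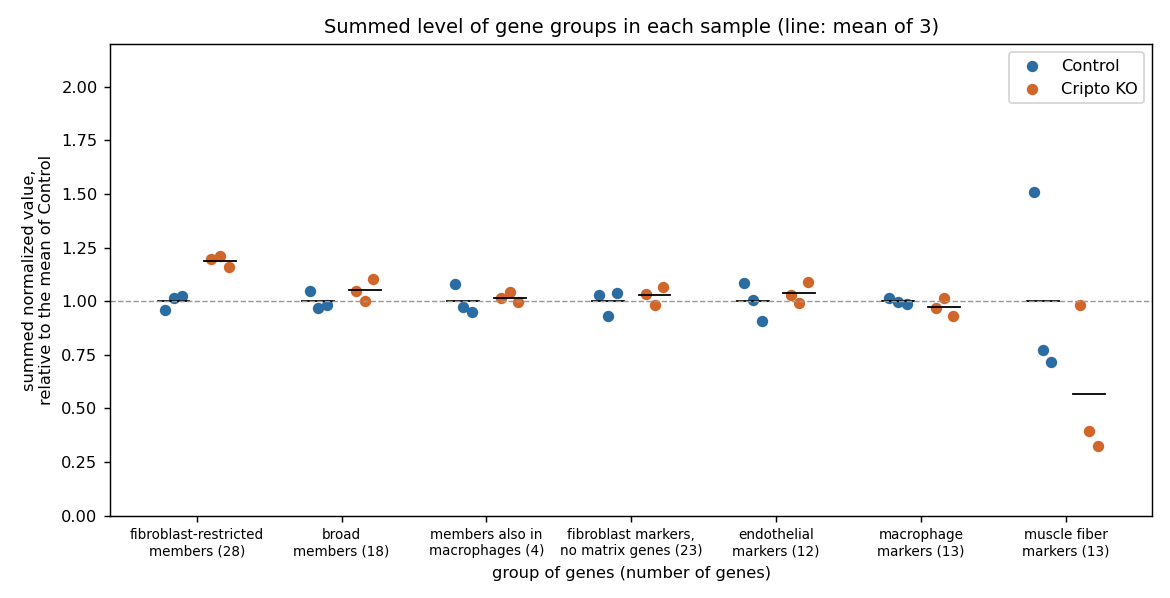
Summed normalized value of gene groups in each sample, divided by the mean of the 3 Control samples (dashed line: 1; black lines: mean of each group). The fibroblast-restricted matrix genes are higher in all 3 Cripto KO samples (ratio of the means 1.19), while the sums of the other members and of the fibroblast, endothelial and MP markers overlap between the groups, and the muscle fiber markers vary widely. The highest genes in the fibroblast marker sum are Gsn, Pdpn and Ly6a, which other cells also express. Of the 23 genes in that sum, 18 had a lower mean in Control.

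Further genes of the matrix pathway were examined as a list of 68 genes, of which 49 were present. Of these 31 had a lower mean in Control (47.4% of all genes). In 3 every Cripto KO value was above Control (6.43% of all genes), and in 2 every Control value was above Cripto KO (8.02%). In limma none had an adjusted p-value under 0.05 (0.131% of all genes), and 3 had an unadjusted p under 0.05 (8.59%). The median log2 fold change was -0.10. Cyr61, a matricellular relative of Ctgf, had the smallest p of the list, with a log2 fold change of -0.53 (SE 0.15, adjusted p = 0.420), followed by Pxdn, a peroxidase that cross-links type IV collagen (-0.51, SE 0.20, adjusted p = 0.533). The highest levels of the list were those of Spp1, Thbs1 and P4hb. Spp1 (osteopontin) had a mean of 4831 in Control and 5011 in Cripto KO (-0.06, SE 0.12), Thbs1 (thrombospondin 1) of 2080 and 2155 (-0.07, SE 0.24), and P4hb, the partner subunit of both P4ha enzymes, of 726 and 696 (0.06, SE 0.08). For each of them the difference was smaller than its standard error.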

How the data were processed

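RNA was extracted from sorted MPs, and libraries were prepared from 200 ng with the NEBNext Ultra kit, for which strand marking is not stated. The authors trimmed the reads with Cutadapt (version 1.7.1), estimated abundances with RSEM (version 1.2.20) against mouse transcripts (GRCm38, release 91) and applied LIMMA normalization. Each deposited value is therefore a signal, that is, reads plus 0.5 per 1000000 of the library size after normalization. Reads could be recovered from the steps between values: 100.0% of the 78048 were within 0.01 of a whole number. All 6 value columns were used.

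Limma (version 3.58.1 in R 4.3.3; lmFit, eBayes with a variance trend) was fitted to log2 values of all 13008 genes without a pseudocount, filter or replicate block, with Benjamini-Hochberg adjustment over all genes. Fold changes are log2(Control/Cripto KO). The count test on the recovered reads, edgeR (version 4.0.16), called 17 genes. The choices varied were the pseudocount (0.5 or 1), a filter on genes with a mean value under 1, median centring, quantile normalization, voom weights, DESeq2 (version 1.42.0), blocking on the replicate number (replicate block), and the removal of single samples. The members, their classes, the lists and the rule for named genes were chosen with earlier results of these data known. Values of every sample are printed for 31 members set by that rule and for the 3 members that differed most in absolute log2 fold change at a mean value of at least 1. The remaining members are given by counts and ranges, except Plod3 and Col18a1, whose values in every sample are printed, and those named with a log2 fold change, such as Loxl2 and Loxl3; these were chosen after their values were seen. Of other lists the 2 genes with the smallest p and those at the highest level could be named. Levels per kilobase used merged exons of GENCODE mouse release M21 on GRCm38, which placed all 50 members. Merged exons count every annotated transcript of a gene, so the order of different genes per kilobase depends on these lengths. Itgam had more than 1 gene ID, and the higher was used. The 95% intervals are those of limma and cover the spread between samples, while floors cover counting error only. Lymphocyte markers are not reported here.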

Additional observations from a re-analysis of the deposited data

How the results depend on the processing

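With 6 samples the median log2 fold change of the fibroblast-restricted genes ranged from -0.25 to -0.22 over the alternatives, and from -0.26 to -0.19 when 1 sample was left out. That of the broadly expressed genes ranged from -0.10 to -0.05, and from -0.20 (without Control 1) to -0.05 (without Control 2) with 1 sample left out. That of the 4 genes also expressed by MPs ranged from -0.07 to -0.04, and from -0.05 to -0.01. Between 36 (without Control 3) and 43 of the 50 genes had a lower mean in Control, and no member was called under any alternative. The sign was the same under every alternative in which they were tested for 34 of the 50 genes, 20 of them among the 28 fibroblast-restricted genes (15 alternatives, of which the filter on the mean removed Pdgfra and Fbln1). Of 748 values of members under alternatives, 745 moved by less than 1 SD. The exceptions were Col1a2 with quantile normalization (-0.28) and Pdgfra with pseudocounts of 0.5 (-0.64) and 1 (-0.46). Leaving out 1 sample cannot move a log2 fold change by 1 SD, here the SD pooled over both groups. The filter on the mean and the replicate block leave it unchanged. For these alternatives the count was fixed in advance, so nothing about stability is read from it.

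The count of all genes called depended on the processing. It was 17 in limma, 6 with quantile normalization, 9 with voom, 74 with DESeq2 and 2 with the replicate block, and 5 (without Cripto KO 2) to 31 (without Control 1) when a sample was left out. The cause was not tested. Samples with the same number did not deviate together (Pearson r of -0.21, -0.00522 and -2.46e-05 across genes), and no pairing was used. With so few samples these correlations cannot show whether same-numbered samples had a common origin. The block is balanced over the groups, so the medians of the members could not move with it. Genes of few reads, such as Pdgfra, allow no firmer statement at this depth.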

Other observations

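Receptors and proteases by which cells bind, take up and degrade collagen were read as a list of 16 genes, of which 14 were present. Of these 9 had a lower mean in Control (47.4% of all genes) and 2 had every Cripto KO value above Control (6.43%). The median log2 fold change was -0.13. In limma none had an adjusted p-value under 0.05 (0.131% of all genes), and 2 had an unadjusted p under 0.05 (8.59%). Itga1, the α1 chain of a collagen-binding integrin, had a log2 fold change of -0.63 (SE 0.27, adjusted p = 0.562). Ctsk, which encodes the collagen-degrading protease cathepsin K, had one of -0.52 (SE 0.22, adjusted p = 0.548). The lysosomal proteases Ctss and Ctsl stood at a mean of 7152 and 3421 in Control.

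Samples differed within groups. Of the 28 fibroblast-restricted genes, 12 were lowest of the 6 samples in Control 1, and none was highest there or in Control 3. In Cripto KO 1, 2 and 3, 11, 5 and 9 of them were highest.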
